A study of Mus musculus with 24 samples.

Results

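The complement components C1qa, C1qb, C1qc, C1ra, C2, C4b, C3, Cfb and Cfp were described in lungs of saline-treated and allergen-challenged mice. They were taken by gene symbol, as 9 of the 23891 genes of the table, and all 9 were among the 17744 genes that averaged at least 1 CPM, read counts scaled to the same total in each sample, and were tested. Complement is a cascade of plasma proteins that marks surfaces for uptake, recruits leukocytes and can perforate membranes. In the classical pathway, C1q binds antibody or altered surfaces and its attached proteases C1r and C1s cleave C4 and C2. In the alternative pathway, C3 that hydrolyses spontaneously binds factor B, which factor D cleaves, and properdin stabilises the resulting enzyme. Both routes meet at C3. Liver is the main source of most plasma components, whereas C1q and properdin come largely from myeloid cells, and lung epithelium, fibroblasts and macrophages also make complement locally.

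RNA-Seq was performed on 24 samples of the left lung lobe of C57BL/6 mice. Adult mice given saline (n = 5) were 20 wk old by their labels. Mice of 80 wk were given saline (n = 5), 50 µg of house-dust mite (HDM) extract per intranasal dose (n = 7), or the same HDM doses together with the steroid dexamethasone (Dex), injected intraperitoneally at 4 mg/kg in 72 h intervals (n = 7). Challenged lungs were collected 24 h past the final dose of HDM. The mice carried no labelled genetic change, no adult mice with HDM and no mice with Dex alone were analysed here, and HDM + Dex is therefore compared with HDM and with saline only. The HDM vs. saline comparison addresses the response of the aged lung to the allergen, HDM + Dex vs. HDM the effect of the steroid on it, and aged vs. adult the baseline difference with age. Whole lobe was sequenced, so fewer cells of a type and less RNA per cell cannot be told apart in any value below.

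From the spacing of low CPM values, 10.03 to 33.05 M reads per sample were estimated, and 3 reads, taken as the detection floor, correspond to 0.0908 to 0.299 CPM, which covers counting error only. Every member was above this floor in every sample. The CPM share of 7SL RNA, a part of the signal recognition particle, was 9.92% to 18.1% in aged saline, 14.96% to 34.0% in HDM, 11.3% to 31.6% in HDM + Dex and 13.6% to 42.0% in adult samples. A high share lowers the CPM of all other genes, so values are given as deposited and the tests were repeated after rescaling by median-of-ratios size factors, which run from 0.607 to 1.23. Over all genes tested, rescaling moved the median log2 fold change from −0.23 to −0.01 for HDM vs. saline and from 0.19 to 0.01 for aged vs. adult, and it moved the HDM calls from 717 higher and 3765 lower to 1958 higher and 2035 lower. For aged vs. adult the calls went from 105 higher and 11 lower to 109 higher and 81 lower, and for HDM + Dex vs. saline from 79 higher and 256 lower to 90 higher and 79 lower. By Xist and Ddx3y, all 5 adult mice were female, as were 2 aged saline, 2 HDM and 4 HDM + Dex mice, so age and sex overlap. Some libraries stood apart for the members. Adult saline replicate 1 (7SL share of 42.0%) was the lowest of its group in all 9 members, HDM replicate 2 lay within or below the saline range in all 9, and HDM replicates 6 and 7, the female mice of that group with 7SL shares of 15.4% and 14.96%, were the highest of it in Cfb, C1ra, C2, C4b and Cfp. Summed markers of heart muscle, at 1229 to 2448 CPM in aged saline, were 90.1 to 955 CPM in HDM and 180 to 2732 CPM in HDM + Dex samples; their part in the results was not tested.

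C1q is a single protein assembled from A, B and C chains, whose genes lie side by side on the minus strand of chromosome 4 (GRCm38), C1qb at 136880129 to 136886187, C1qc at 136889804 to 136893065 and C1qa at 136895917 to 136898803. Upstream sequences from RefSeq (GRCm38.p6) were available for 5 of the 9 members, C1qb, C1qc, C1ra, C3 and Cfp. The windows of C1qb and C1qc are shown because these neighbours moved together, and that of C3 because it had the highest level of the members. The C1qb window is chr4:136886201-136886450 and the C3 window chr17:57228137-57228386, both the 250 bases before the start. For C1qc the 99 bases at chr4:136893066-136893164 are given, which lie upstream of both the RefSeq and the GENCODE start. All are read 5′ to 3′ on the minus strand. Capitals mark AGGAAG, the core of sites of PU.1, and GCTGAC, a half-site of MAF factors, in C1qb and C1qc, and TTGCNNAA, paired half-sites of C/EBP factors, in C3, on either strand.
C1qb: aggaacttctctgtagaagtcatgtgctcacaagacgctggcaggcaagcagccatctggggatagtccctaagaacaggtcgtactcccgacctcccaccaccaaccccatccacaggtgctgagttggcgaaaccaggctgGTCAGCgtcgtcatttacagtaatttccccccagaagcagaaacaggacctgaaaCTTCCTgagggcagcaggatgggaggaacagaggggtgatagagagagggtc
C1qc: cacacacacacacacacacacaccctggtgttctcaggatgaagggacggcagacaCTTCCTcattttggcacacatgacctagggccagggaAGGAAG
C3: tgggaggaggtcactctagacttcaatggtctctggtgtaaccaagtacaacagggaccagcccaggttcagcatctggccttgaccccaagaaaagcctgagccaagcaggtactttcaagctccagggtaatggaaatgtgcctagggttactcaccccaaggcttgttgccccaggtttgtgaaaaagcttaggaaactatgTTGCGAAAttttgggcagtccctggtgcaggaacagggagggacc
The motifs were chosen after the sequences were seen. Of 32851 windows of the same length, 29.5% held AGGAAG, 12.9% GCTGAC and 9.56% TTGCNNAA on either strand. In C1qb the AGGAAG match began 52 bases and the GCTGAC match 107 bases before the start, and in C3 the TTGCNNAA match began 45 bases before it. The longest run of bases that C1qb and C1qc shared was 8 long, contains the GCTGAC match of both, and occurs in 0.992% of the windows. It is shown in capitals in the 30 bases around it, chr4:136886291-136886320 for C1qb and chr4:136893026-136893055 for C1qc, the latter within the transcript that GENCODE annotates.
C1qb: cgaaaccaggcTGGTCAGCgtcgtcattta
C1qc: agatatcactgTGGTCAGCctggatcagaa
Neither TTCNNNGAA, a site of STAT factors, nor GAAANNGA, a core of IRF sites, occurred in the C1qb, C1qc, C1ra or C3 windows, and GAAANNGA occurred in Cfp. These letters were found in 7.02% and 18.1% of all windows. A match is a run of letters only and was not tested for binding.

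The C1q chains were among the members with the largest rise after HDM. C1qb was 10.3, 25.0, 18.4, 28.4 and 16.4 CPM in the 5 aged saline samples. In the 7 HDM samples it ran from 20.7 over a median of 73.3 to 114 CPM. All HDM samples but replicate 2, the lowest, lay above every saline sample, and that replicate lay within the saline range. C1qb thus rose by 1.82 ± 0.36 (SE) on the log2(CPM + 1) scale (limma, adjusted p = 0.00156), and the group means were 75.4 ± 28.3 (SD, n = 7) and 19.7 ± 7.14 CPM (SD, n = 5). C1qa went from 12.1 to 22.9 CPM in saline to 13.1 to 79.8 CPM in HDM, with a median of 55.0. Its log2 fold change was 1.40 ± 0.38 (limma, adjusted p = 0.0105). C1qc went from 10.6 to 27.0 CPM in saline to 16.1 to 82.9 CPM in HDM, with a log2 fold change of 1.41 ± 0.41 (limma, adjusted p = 0.0160), a call lost without aged saline replicate 1 (1.23, limma, adjusted p = 0.0557). Without HDM replicate 2 the fold changes were 1.71, 2.10 and 1.66 for C1qa, C1qb and C1qc. After rescaling all 3 were called, at 1.65, 2.07 and 1.65 (limma, adjusted p = 0.00313, 0.000722 and 0.00531). Among the males alone they were 1.39, 1.93 and 1.39 (limma, adjusted p = 0.0358, 0.00774 and 0.0404), and among the females alone 1.54, 1.75 and 1.56 (limma, adjusted p = 0.0999, 0.0814 and 0.108), with 2 mice per group. The calls did not pass among the females alone, and whether the sexes differ was not tested.

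The proportions of the chains varied between samples. Per kilobase of exon and as a share of the C1q sum, C1qa took 31.6% to 43.8%, C1qb 35.5% to 48.9% and C1qc 13.3% to 24.5% over the 24 samples. Mean shares of C1qb were 39.2% ± 3.27 (SD, n = 5) in aged saline and 46.4% ± 1.77 (SD, n = 7) in HDM, a comparison given with no test. Across the 24 samples, after group means were removed from log2 rescaled CPM, Pearson's r between the chains was 0.942 to 0.947, a description of libraries that share depth and composition.

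**Figure D1:**
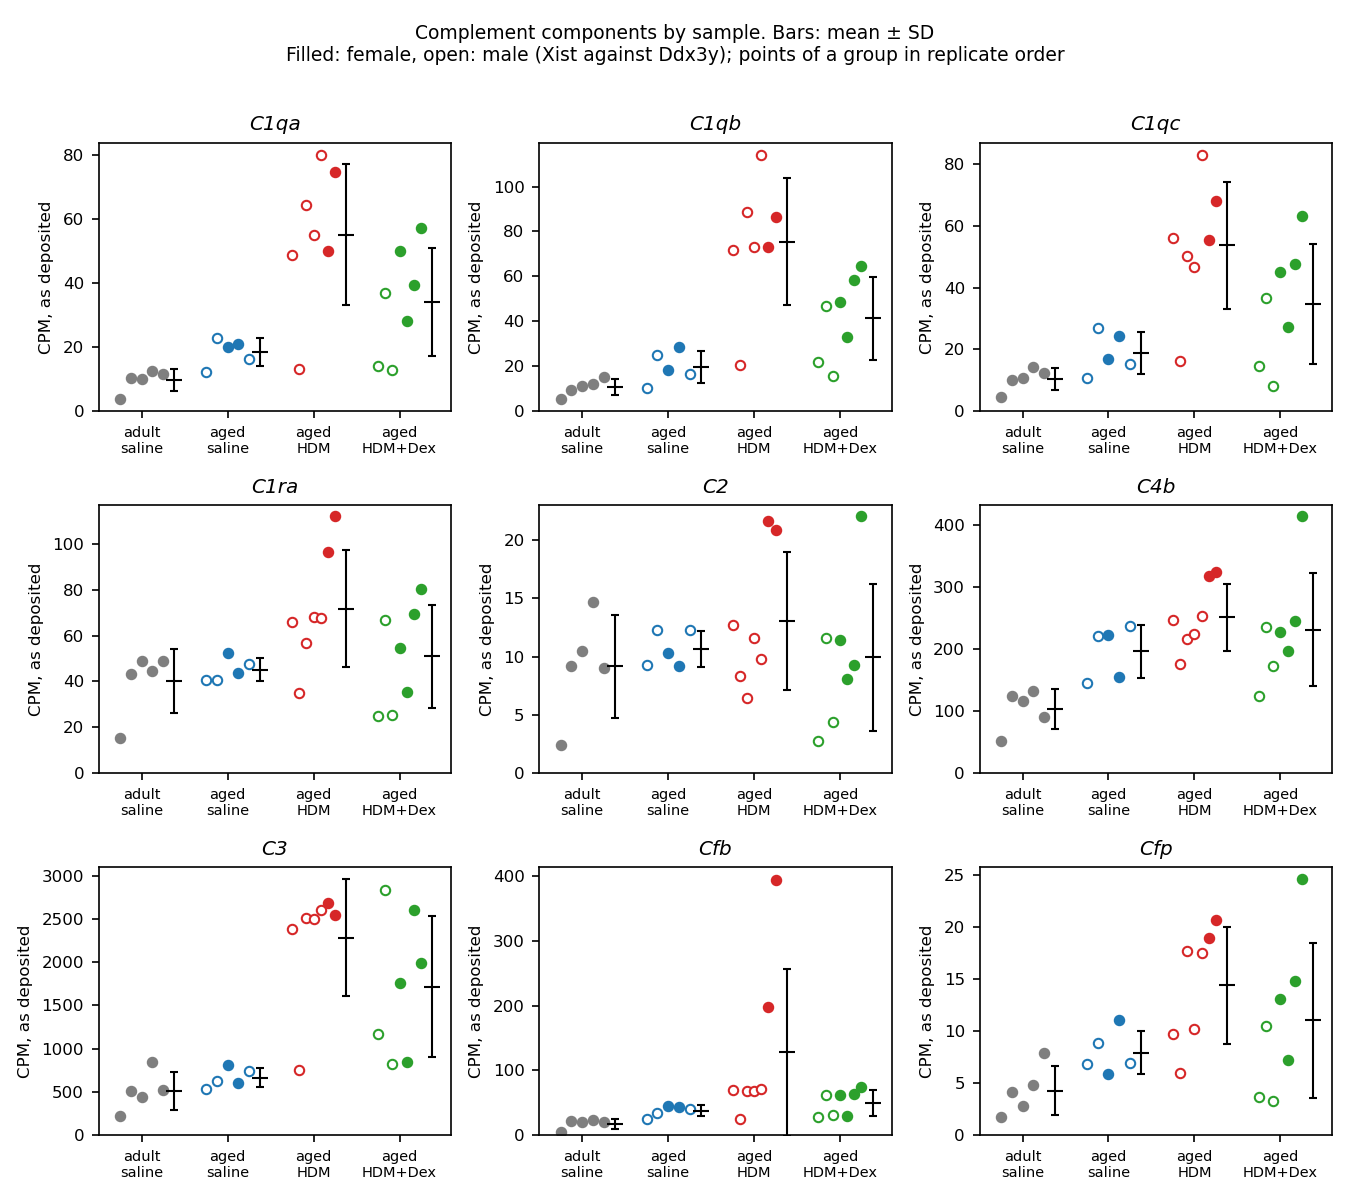
CPM as deposited of the 9 complement components (y axis, from 0) in each sample of the 4 groups (x axis). Filled points are female and open points male mice, and bars give the mean ± SD. HDM replicate 2 sits near the aged saline samples in C1qa, C1qb, C1qc and C3, and the 2 female HDM mice hold the highest Cfb of all samples, 199 and 394 CPM.

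Macrophage markers, of cells that make C1q, were mixed after HDM. Of the 8 general macrophage markers 5 were called higher as deposited and 6 after rescaling, with none lower, where 4.04% and 11% of all genes were called higher. Their summed level had a lower median in HDM, 1823 CPM in a range of 1229 to 5102 CPM, than in aged saline, 2536 CPM in a range of 2087 to 3173 CPM. HDM replicate 3, with C1qb at 88.5 CPM, held the lowest sum and replicate 2, with the lowest C1qb, the median one. These sums are of CPM as deposited, and the most abundant markers weigh most in them. Replicate 3 also had the highest 7SL share of the HDM samples, 34.0%. Taken gene by gene, the median log2 fold change of the 8 markers was 0.86, beside −0.23 for all genes. Interstitial macrophage markers gave 0 higher and 1 lower of 10 as deposited, and 4 higher and 1 lower after rescaling, with sums of 466 to 646 CPM in saline and 415 to 675 CPM in HDM. For alveolar macrophage markers, 1 of 8 was higher and 1 lower as deposited and 2 higher and 1 lower after rescaling, and the sums were 111 to 172 and 129 to 358 CPM. No marker of these lists was at 0 throughout a group. The part of these cells in the C1q result was not tested.

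C1ra, C2 and C4b, the proteases and the substrate that follow C1q, were not called after HDM in the deposited CPM. C1ra (chromosome 6, 124512405 to 124523443, plus strand), the C1q-bound protease, was 40.7 to 52.5 CPM in saline and 34.8 to 112 CPM in HDM, with a log2 fold change of 0.59 ± 0.28 (limma, adjusted p = 0.123) that passed without HDM replicate 2 (0.74, limma, adjusted p = 0.0421). The highest values, 96.3 and 112 CPM, were those of HDM replicates 6 and 7. C4b (chromosome 17, 34728380 to 34743882, minus strand), which supplies C4, was 145 to 238 CPM in saline and 176 to 325 CPM in HDM, with a log2 fold change of 0.35 ± 0.22 (limma, adjusted p = 0.235). C2 (chromosome 17, 34862604 to 34898265, minus strand), the protease part of the classical C3 convertase, was the member that differed least, at 9.20 to 12.3 CPM in saline and 6.46 to 21.6 CPM in HDM with a log2 fold change of 0.17 ± 0.34. Leaving out the female HDM mice turned the C2 value to −0.14. After rescaling, C1ra was called at 0.84 (limma, adjusted p = 0.0170) and C4b at 0.61 (limma, adjusted p = 0.0173), and C2 at 0.40 did not pass (limma, adjusted p = 0.323). Near-identical copies of C1ra and C4b were at low levels, C1rb at a mean of 0.0420 to 0.303 CPM and C4a at 0.512 to 1.36 CPM over the groups, and how reads were split between copies is uncertain.

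C3, on which both pathways converge, had the highest level of the members and rose with HDM. Its gene lies on the minus strand of chromosome 17, 57203970 to 57228136. Aged saline samples held 538, 621, 809.6, 603 and 736 CPM. HDM samples ran from 757 over a median of 2517 to 2685 CPM. HDM replicates other than 2 lay between 2388 and 2685 CPM, above all saline samples, whereas replicate 2 at 757 CPM fell within the saline range. C3 rose by 1.70 ± 0.32 on the log2 scale (limma, adjusted p = 0.00116), by 1.95 without HDM replicate 2 (limma, adjusted p = 7.18e-05), by 1.65 among the males (limma, adjusted p = 0.0101) and by 1.90 among the females, where it was not called (limma, adjusted p = 0.113). After rescaling C3 was called at 1.96 (limma, adjusted p = 0.000591) and the HDM and saline samples no longer overlapped. Markers of hepatocytes, the main source of plasma C3, were low. Of 10 such markers 4 were in the table, 1 of them above the filter, and their sum was at most 11.2 CPM in any sample. The part of liver cells in the C3 values was not tested.

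In the alternative pathway, Cfb, which encodes factor B, was called after HDM, with the highest values in 2 mice and, as deposited, a call near the threshold. Cfb (chromosome 17, 34856374 to 34862518, minus strand) was 25.3, 33.4, 45.5, 43.9 and 40.3 CPM in aged saline. In HDM it ran from 24.3 over a median of 69.5 to 394 CPM. The 4 male HDM mice other than replicate 2 lay between 67.7 and 71.4 CPM, replicate 2 below all saline samples, and the females, replicates 6 and 7, at 199 and 394 CPM. The log2 fold change was 1.25 ± 0.44 (limma, adjusted p = 0.0426). It was 0.60 without both females (limma, adjusted p = 0.127), 0.77 among the males (limma, adjusted p = 0.0888) and 2.62 among the females (limma, adjusted p = 0.0576), none of which passed. The call was lost without any one of the saline or HDM samples other than HDM replicate 2, 11 samples in all. The lowest value, 0.90, came without HDM replicate 7 (limma, adjusted p = 0.0644), and without replicate 6 it was 1.06 (limma, adjusted p = 0.0716). Cfb was called with a lower adjusted p after rescaling at 1.501 (limma, adjusted p = 0.0111), with sex as a covariate at 1.37 (limma, adjusted p = 0.00700), with the 7SL share as a covariate at 2.24 (limma, adjusted p = 0.0121) and with sample quality weights at 1.06 (limma, adjusted p = 0.0166). It was not called without a filter (limma, adjusted p = 0.0567), with only the groups compared (limma, adjusted p = 0.0575) or with replicate number as a block. Of 17 alternatives other than leaving out 1 sample, 6 lost the call, those by sex and without both females included. The sum of 15 interferon-γ targets was also highest in these mice, at 1473 and 1861 CPM in HDM replicates 6 and 7. It was 448 to 762 CPM in the other HDM and 458 to 709 CPM in the aged saline samples. In HDM + Dex samples the sum ran from 315 to 1265 CPM. Replicate 7 of that group, with the highest sum and the highest Cfb in it, held Cfb at only 74.2 CPM. Of these 15 genes 1 was called higher after HDM as deposited and 4 after rescaling, none lower, and their part in the Cfb values was not tested. Cfp (chromosome X, 20925454 to 20931555, minus strand), which encodes properdin, was 5.85 to 11.1 CPM in saline and 5.96 to 20.7 CPM in HDM. At 0.72 ± 0.37 it did not pass as deposited (limma, adjusted p = 0.149) and was called after median-of-ratios rescaling at 0.94 (limma, adjusted p = 0.0487), but not after rescaling without 7SL RNA and rRNA (limma, adjusted p = 0.05004) or quantile normalization (limma, adjusted p = 0.0522).

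In the whole set, 5 of the 9 members (C1qa, C1qb, C1qc, C3 and Cfb) were called after HDM in the deposited CPM, all of them higher. Among all genes tested 25.3% were called in either direction, 4.04% higher and 21.2% lower. The median log2 fold change of the 9 members was 1.25, beside −0.23 for all genes. After median-of-ratios rescaling 8 of the 9 were called, all higher, where 11% of all genes were called higher. After rescaling without 7SL RNA and rRNA 7 were called higher, beside 2107 of 17737 genes. After quantile normalization 7 were called higher, beside 1863 of 17744 genes. No member separated the HDM from the saline samples completely as deposited, as 1.03% of all genes did in the higher direction. With the 7SL share as a covariate all 9 members were called higher, where 1571 genes (8.85%) were called, 1172 of them higher. Among the females alone limma called 0 of the 9 members and 9 of all genes tested. There all 9 members had an unadjusted p under 0.05, as did 2320 of the 17744 genes tested.

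**Figure D2:**
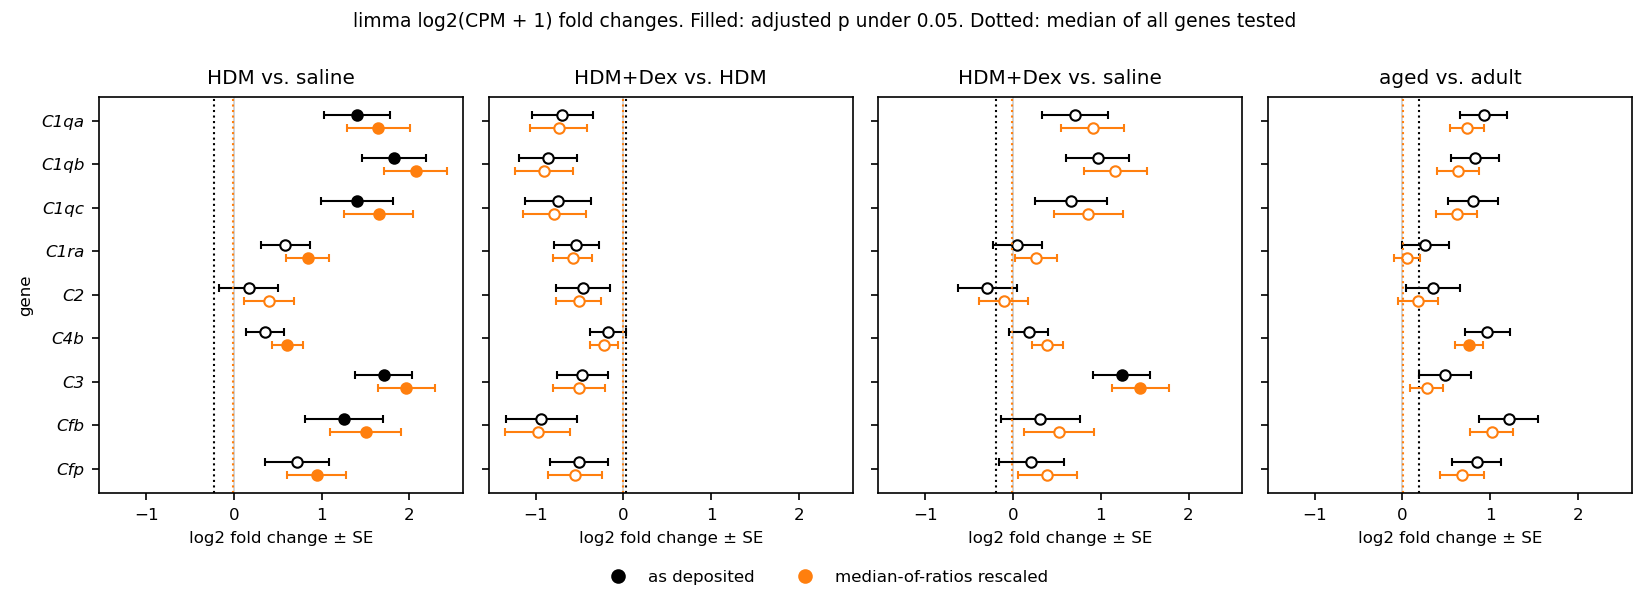
Log2 fold changes ± SE from limma on log2(CPM + 1) (x axis) of the 9 complement components (y axis) in the 4 comparisons, as deposited in black and rescaled in orange. Filled points passed an adjusted p of 0.05 and dotted lines give the median of all genes tested. All 9 members lie above the HDM vs. saline median and all 9 lie below 0 in HDM + Dex vs. HDM, where none was called.

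With Dex, no member was called different from HDM. All 9 log2 fold changes were negative, from −0.94 to −0.18 with a median of −0.53, beside 0.03 for all genes, and limma called 0 of 9, where 0.964% of all genes were called. The lowest adjusted p was 0.222 for C1qb. In limma, 3 members had an unadjusted p under 0.05, as did 2389 of the 17744 genes tested. The number of such members was 0 without both female HDM samples and 7 with sex as a covariate. C1qb was 15.7 to 64.7 CPM in HDM + Dex with a median of 46.8, against a median of 73.3 in HDM. Its log2 fold change was −0.86 ± 0.33, and without HDM replicate 2 it was −1.14 and passed (limma, adjusted p = 0.0292). C3 covered a wide range in HDM + Dex, from 826 over 1759 to 2838 CPM, where HDM + Dex replicate 2 exceeded every HDM sample and replicates 3 and 5 lay near the saline range. The log2 fold change of C3 was −0.47 ± 0.29 (limma, adjusted p = 0.535). Cfb was 27.3 to 74.2 CPM in HDM + Dex, with a median of 62.1 near the 69.5 of HDM. Its log2 fold change of −0.94 ± 0.41 (limma, adjusted p = 0.297) became −0.28 without both female HDM mice. C4b differed least, by −0.18 ± 0.20 (limma, adjusted p = 0.781).

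Compared with saline, C3 was the member called in HDM + Dex, 1 of 9, where 1.89% of all genes were called and 0.445% of all genes were called higher. This comparison shares the HDM + Dex and saline samples with the others. All 7 HDM + Dex samples lay above all 5 saline samples, as in 0.524% of all genes, and the log2 fold change of C3 was 1.24 ± 0.32 (limma, adjusted p = 0.0479). The call was close to the threshold and was lost without any one of the 5 saline samples, HDM replicates 1, 4 and 5, which enter through the shared estimate of spread, and HDM + Dex replicates 1, 2 and 6, with adjusted p from 0.0546 to 0.123 in limma. C1qb at 0.96 ± 0.36 (limma, adjusted p = 0.148) and C1qa at 0.71 ± 0.38 (limma, adjusted p = 0.274) came next. Cfb, at 0.31 ± 0.44, was within its error of saline.

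At baseline, the members were at higher mean levels in aged than in adult lungs, but limma called none of the 9 as deposited, where 0.654% of all genes were called, 0.592% higher. Log2 fold changes ran from 0.26 to 1.21 with a median of 0.83, beside 0.19 for all genes. In limma, 6 members had an unadjusted p under 0.05, as did 1993 of the 17744 genes tested. C4b was 52.2, 125, 116, 133 and 89.9 CPM in adult and 145, 222, 223, 155 and 238 CPM in aged saline samples. Cfb was 4.36, 21.3, 19.4, 22.4 and 19.8 CPM in adult samples, below the aged saline values given above. The age groups did not overlap in C4b and Cfb, 2 of 9 members, where 2.91% of all genes separated in this direction. C4b differed by 0.97 ± 0.25 (limma, adjusted p = 0.111) as deposited and rose by 0.75 after rescaling (limma, adjusted p = 0.0385), with 0.614% of all genes called higher. Cfb differed by 1.21 ± 0.34 (limma, adjusted p = 0.144), and without adult replicate 1 by 0.80, where it was called (limma, adjusted p = 0.0368). C1qa differed by 0.93 ± 0.27 (limma, adjusted p = 0.157), from 3.79 to 12.5 CPM in adult to 12.1 to 22.9 CPM in aged samples. C1ra and C2, at 0.26 and 0.35, were at −0.05 and −0.01 without adult replicate 1. Markers of other cells also differed with age. Of 8 neutrophil markers tested 5 were called higher in aged lungs under either scaling, with a median log2 fold change of 1.90 and sums of 120 to 301 CPM against 52.0 to 107 CPM in adult samples. Of 10 fibroblast markers Col1a1, Col1a2 and Col3a1 were called lower, with sums of 858 to 1079.7 CPM in aged and 903 to 1800.3 CPM in adult samples. Their part in the member values was not tested. Since all adult mice were female, age and sex cannot be fully told apart. Among the females alone, 5 adult and 2 aged mice, limma called 0 of 9, where 0.648% of all genes were called. There 6 members had an unadjusted p under 0.05, as did 1424 of the 17744 genes tested.

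Levels between genes were compared per kilobase of annotated exon. C3 led in every group, with means of 99.0 CPM per kb in adult, 129 in aged saline, 444 in HDM and 334 in HDM + Dex samples. C2 was the lowest in all groups, at 2.37, 2.76, 3.38 and 2.57 CPM per kb, and Cfp was next, at 2.46 to 8.29 CPM per kb, and the ranges of both overlapped in adult, HDM and HDM + Dex samples. In aged saline, C4b at 34.5 ± 7.56 (SD, n = 5) was followed by C1qb at 18.1 ± 6.56, C1qa at 17.7 ± 4.09, C1ra at 15.1 ± 1.70 and Cfb at 13.3 ± 2.95, and the ranges of these last 4 overlapped. In HDM the order was C1qb at 69.3 ± 25.998 (SD, n = 7), C1qa at 52.9 ± 21.2, Cfb at 45.2 ± 45.8 and C4b at 44.1 ± 9.49, whose ranges overlapped.

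**Figure D3:**
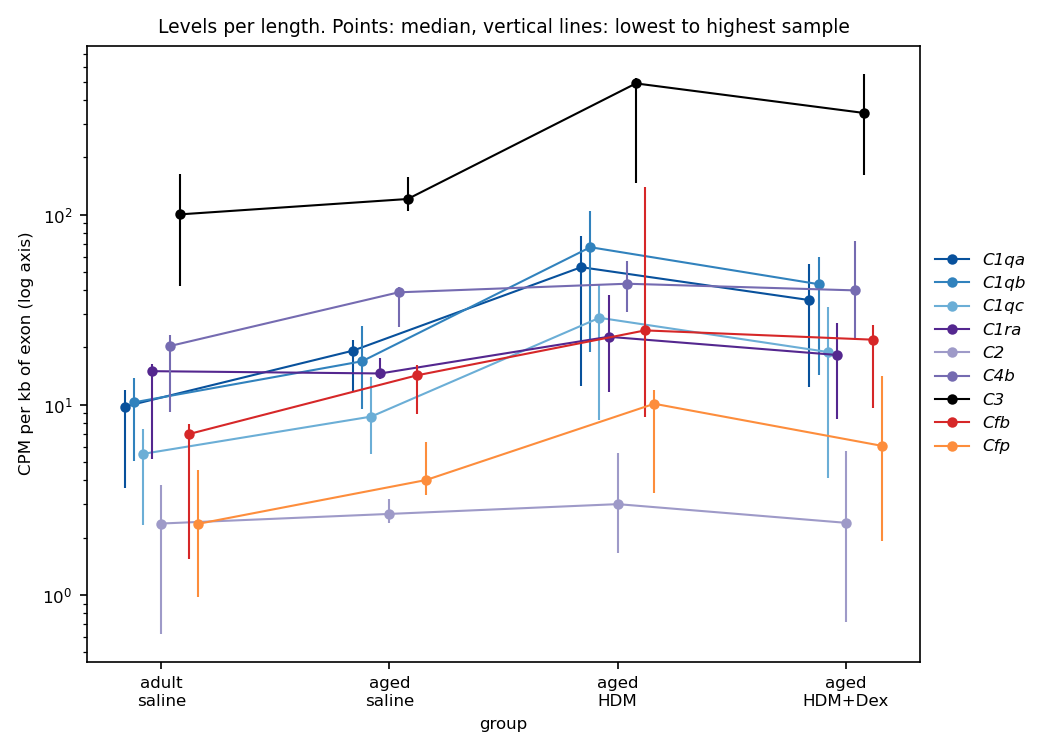
CPM per kilobase of annotated exon (y axis, log scale) of the 9 complement components in the 4 groups (x axis). Points are medians, vertical lines run from the lowest to the highest sample, and lines join the medians of one gene. C3 is the highest and C2 is among the lowest in every group, and C1qa and C1qb pass C4b in HDM.

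To set the classical against the alternative pathway, log2 ratios were formed within each sample, which no library scaling can change. They are descriptions with no test, since the members were chosen with results known. The mean log2 CPM of the 6 classical genes less that of Cfb and Cfp was 0.76 ± 0.20 (SD, n = 5) in aged saline, 0.72 ± 0.50 (SD, n = 7) in HDM, 0.88 ± 0.15 (SD, n = 7) in HDM + Dex and 1.18 ± 0.31 (SD, n = 5) in adult samples. The aged groups thus overlapped, and HDM replicates 6 and 7, at 0.22 and −0.11, were the lowest of all samples. With the C1q chains alone the ratio was 0.10 ± 0.30 in saline and 0.67 ± 0.63 in HDM. Against Cfb alone, the 6 classical genes were at −0.37 ± 0.26 in saline and −0.65 ± 0.86 in HDM, and against Cfp alone at 1.89 ± 0.36 and 2.09 ± 0.34. Within each pathway the members were spread, from 1.40 to 1.82 on the log2 scale for the C1q chains after HDM against 0.17 to 0.59 for C1ra, C2 and C4b, and 1.25 for Cfb against 0.72 for Cfp, differences that were not tested. C3 exceeded the classical mean by 4.17 to 4.75 log2 units in saline and by 4.93 to 5.56 in HDM, without overlap. The same difference was 4.45 to 5.14 in adult and 4.65 to 5.99 in HDM + Dex samples, and both ranges overlapped that of HDM. How often ratios of other genes separate these groups was not tested.

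Cfb and C2 encode the protease of the C3 convertase in the alternative and the classical pathway, and they are direct neighbours on chromosome 17. Per length, Cfb exceeded C2 by 2.09 to 3.18 times in adult, 3.72 to 6.55 times in aged saline, 3.99 to 25.9 times in HDM and 4.61 to 13.4 times in HDM + Dex samples. Every adult sample was below every aged sample. All adult mice were female, and how often other gene pairs separate by age was not tested. The annotation holds a readthrough gene across the pair, Gm20547, that is not a row of the table, so how reads were divided between Cfb and C2 is uncertain.

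**Figure D4:**
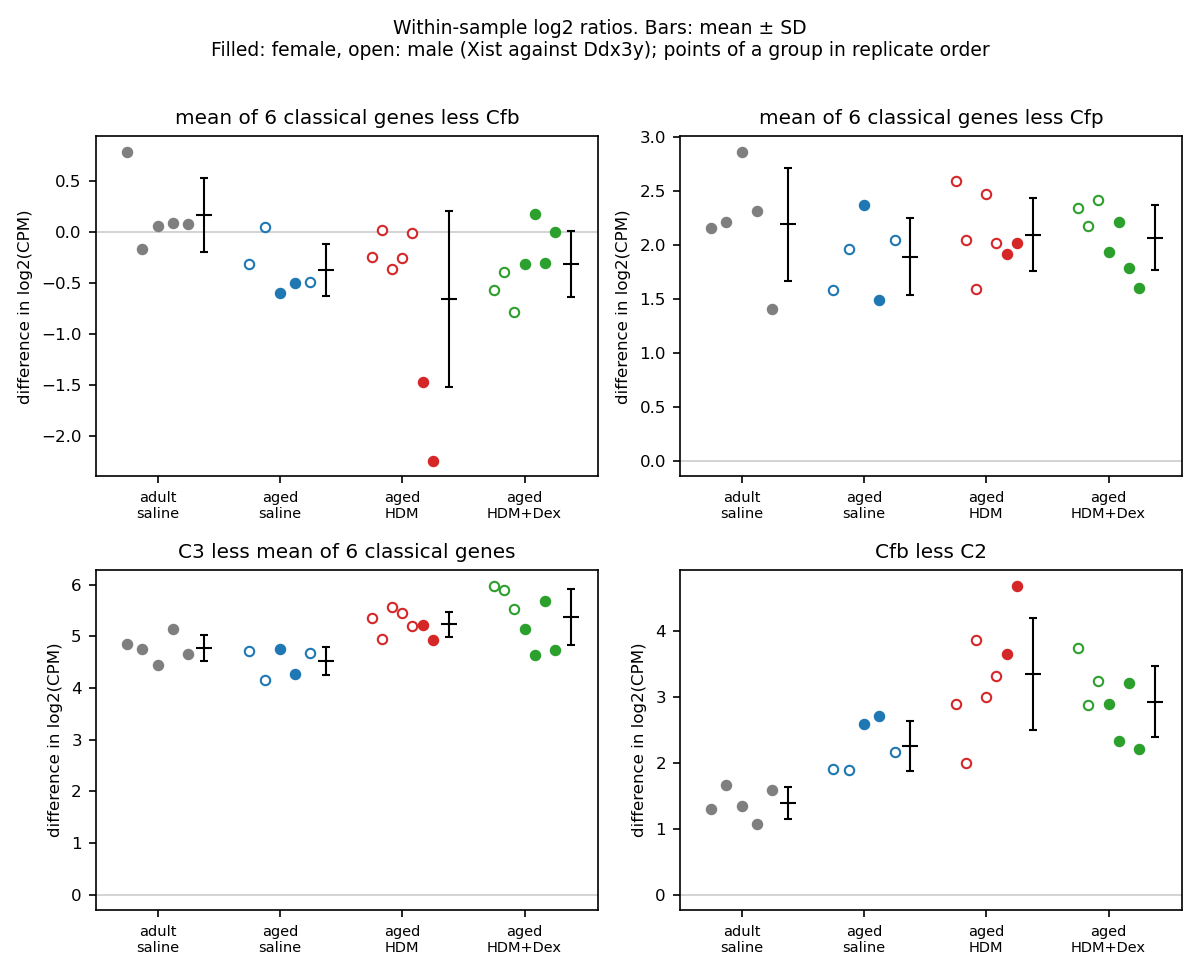
Differences in log2 CPM within each sample (y axis) for the 6 classical genes against Cfb and against Cfp, C3 against the classical genes, and Cfb against C2, in the 4 groups (x axis). The values for Cfb against C2 are per kilobase of exon, unlike those of the other panels. Filled points are female and open points male mice, and bars give the mean ± SD. The female HDM mice, at −1.47 and −2.24, lie below all other samples for the classical genes less Cfb.

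Of 43 further complement genes, 36 were in the table and 26 were tested. After HDM 4 were higher, 6 lower and 16 not called, with a median log2 fold change of −0.24, close to the −0.23 of all genes. Among all genes 4.04% were called higher and 21.2% lower. After rescaling 5 were higher, 3 lower and 18 not called. Receptors held most of the higher calls, 3 of 7 tested. C3ar1, the receptor of C3a, rose from 6.53 ± 1.23 CPM (SD, n = 5) to 34.8 ± 14.9 CPM (SD, n = 7), by 2.14 ± 0.27 on the log2 scale (limma, adjusted p = 9.07e-05), and was also called in HDM + Dex vs. saline at 1.28. Itgax and Itgb2, which together form complement receptor 4, rose by 1.88 and 1.29. Itgam, the partner of Itgb2 in complement receptor 3, was called after rescaling only, at 0.97 (limma, adjusted p = 0.0203). C5ar1, a receptor of C5a, was at −0.38 ± 0.33 and did not pass (limma, adjusted p = 0.405).

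Among membrane regulators, which shield host cells, 3 of 6 tested fell and none rose, and 2 of 6 fell after rescaling, where 21.2% and 11.5% of all genes were called lower. Cd46, a cofactor for cleavage of C3b, fell by 1.03, Cd55, which speeds the decay of C3 convertases, fell by 0.75, and Cr1l (Crry), the broadly expressed rodent regulator, fell by 0.38 as deposited and was not called after rescaling at −0.13 (limma, adjusted p = 0.293). Of the soluble regulators Vtn fell by 0.67, a call lost after rescaling, and Serping1 (−0.12) did not pass. Cfi was below the filter, at means of 0.194 to 1.10 CPM. C7, of the terminal complex, fell by 0.86 as deposited and was not called after rescaling (limma, adjusted p = 0.0670), and Hc, which encodes C5, did not pass at −0.24. Of the 7 other initiating genes tested, C1rl rose by 0.59. Cfd, factor D, the protease that activates factor B and a gene of fat cells, fell by 1.92 ± 0.43 (limma, adjusted p = 0.00352), from 4.78 to 8.86 CPM in aged saline to between 0 and 5.44 CPM in HDM. It was 11.3 to 21.2 CPM in adult samples other than replicate 5, which held 92.8 CPM. In aged vs. adult Cfd was not called, at −1.64 (limma, adjusted p = 0.0755), nor after rescaling (limma, adjusted p = 0.0741). Cfd was also called in HDM + Dex vs. saline at −1.83, though not after rescaling (limma, adjusted p = 0.0601). With Dex against HDM limma called 0 of the 26 genes, beside 0.964% of all genes, and C3ar1 came closest at −0.85 (limma, adjusted p = 0.0950). C5ar1, Cd55, Cfd, Cr1l, Hc and Serping1 did not pass either. Of the 26 genes 6 had an unadjusted p under 0.05, as did 2389 of the 17744 genes tested. In aged vs. adult, Csmd1, a membrane regulator, was called higher at 1.39 (limma, adjusted p = 0.00834) and not after rescaling (limma, adjusted p = 0.0605).

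**Figure D5:**
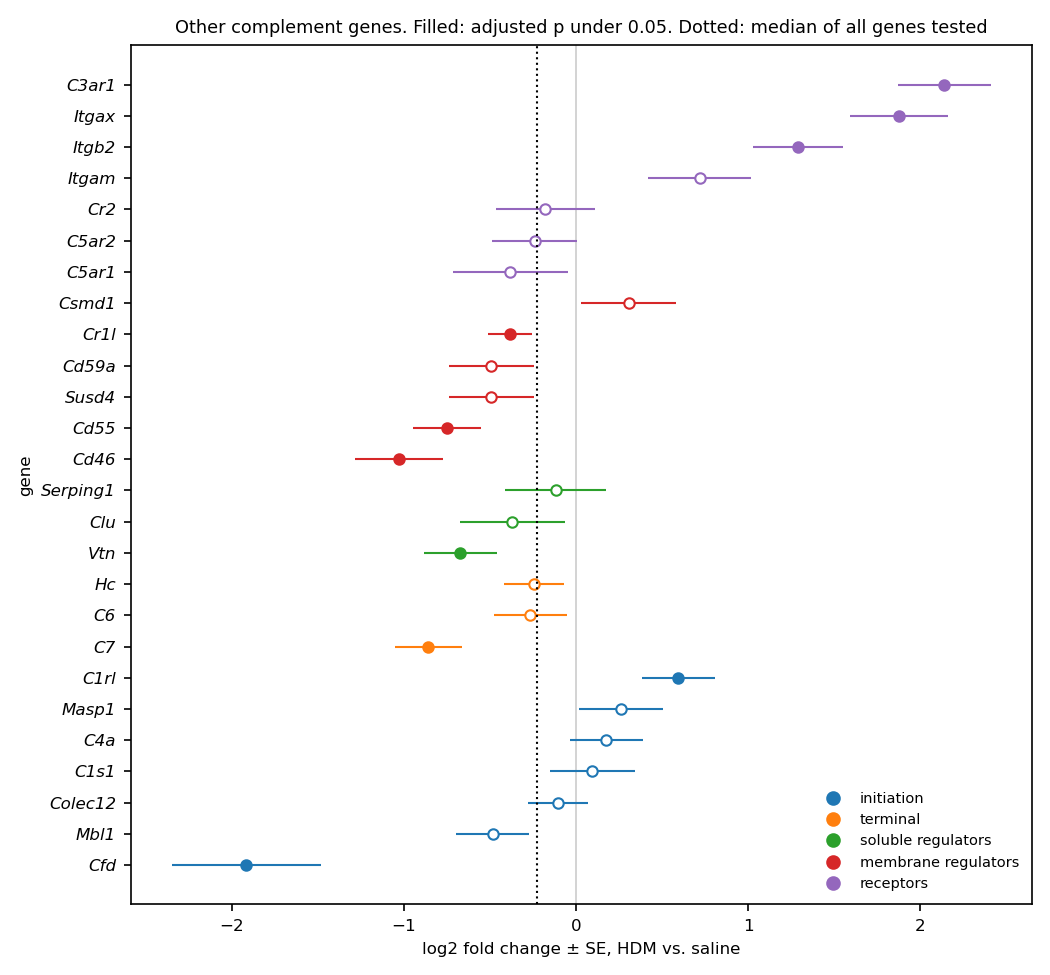
Log2 fold changes ± SE for HDM vs. saline (x axis, limma on log2(CPM + 1)) of the 26 further complement genes tested (y axis), coloured by role. Filled points passed an adjusted p of 0.05 and the dotted line is the median of all genes tested, −0.23. Called receptors lie to the right, from 1.29 to 2.14, and called regulators and Cfd to the left of 0.

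Genes whose pattern was most like that of a member were ranked by Pearson's r over the 24 samples, after group means were removed from log2 rescaled CPM, among the 9661 genes that averaged 10 CPM or more. For C1qa these were Cd44, Ctsb, Ccl8, Fen1 and Fcgr3, with r from 0.85 to 0.87. For C3 they were Serpina3n, an acute-phase serine protease inhibitor, at 0.91, and Lgals1, Dap, Ifi30 and Mydgf at 0.84 to 0.85. For Cfb they were Psme1, an interferon-inducible proteasome activator subunit, at 0.85, and Gm21188, Gm13092, Il2rg and Saa3 at 0.78 to 0.80. The ranks depended on the scaling. In CPM as deposited, Cd44 and Ccl8 ranked 20 and 132 for C1qa, and Gm13092, Il2rg and Saa3 ranked 25, 18 and 758 for Cfb. The genes named for C3 ranked from 1 to 7, and the others from 3 to 10. Between the members themselves r of rescaled CPM ran from 0.42 for C1qb and C2 to 0.95 for C1qb and C1qc, with C3 and Cfb at 0.60. These values describe samples that share library composition, and no p is given.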

How the data were processed

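The members and the gene lists were chosen with earlier results of these data known. Total RNA of lung was extracted. Per the study's methods the authors made TruSeq Stranded mRNA libraries from it and processed the reads with Picard, STAR and limma. The single table deposited holds CPM, counts scaled to a common total per sample, to which the authors added 0.0001, which was subtracted here. The submitters' notes name FastQC, STAR, DESeq2 and mm9, whereas the gene coordinates of the table match GENCODE on GRCm38 (same start for 23142 of 23276 symbols found), so positions are given on GRCm38. The handling of strand and of multiply mapped reads is not given in the sources used here.

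Depending on the sample, 80.3% to 84.7% of low values were whole multiples (tolerance 0.05) of the spacing between values, so no count test was run. limma 3.58.1 in R 4.3.3 was fitted to log2(CPM + 1) for the 17744 genes that averaged 1 CPM or more, with eBayes with trend and Benjamini-Hochberg adjustment over all genes at 0.05. Fold changes are on this scale, which understates low genes. The 19 aged samples shared 1 fit and the 10 saline samples another. The labels do not say outright that each sample is a separate mouse, so p-values measure only the spread between these samples, which may in part be technical. Depth was 10.03 to 33.05 M estimated reads per sample. The step was tested on simulated data. Named were all 9 members, further complement genes called in any comparison, a fixed set (Cfd, Cfi, Hc, Serping1, Cr1l, Cd55, C3ar1, C5ar1; 1 further gene is not reported here) and the 5 genes most like C1qa, C3 and Cfb. Tables and figures were made with Python 3.11.15, pandas 2.3.3, numpy 2.4.6 and matplotlib 3.10.9. Alternatives were other pseudocounts, filters, scalings, fits, covariates, a replicate block and leaving out each sample. The fits by sex and without both female HDM mice were added after seeing the data.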

Additional observations from a re-analysis of the deposited data

Results flagged for a closer look

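Single samples lay far from the rest of their group, by the gap to the nearest sample over the range of the group, in 4 of the 36 groups of member values, where about 1 in 20 groups is marked by chance. C3 in HDM replicate 2 was 757 CPM, against 2388 to 2685 CPM in the other HDM samples, and still lay apart after rescaling. Cfb in adult saline replicate 1 was 4.36 CPM, against 19.4 to 22.4 CPM in the other adults, also after rescaling, and C1ra in the same library was 15.4 CPM, against 43.1 to 48.9 CPM, as deposited only. C4b in HDM + Dex replicate 7 was 415 CPM, against 125 to 246 CPM in the rest of its group, as deposited only. The 7SL share of the adult library was 42.0%, and its part in the low values was not tested.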

How the results depend on the processing

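For HDM vs. saline, 128 of the 153 member values under alternatives other than leaving out a sample kept their direction and side of the threshold. Of the 9 members, 9 were called with the 7SL share as a covariate, 8 after median-of-ratios rescaling and 0 among females alone. All genes called were 1571, 3993 and 9 in these settings, 7876 with quality weights and 6830 without both female HDM samples. C2 reversed to −0.12 with a replicate block, −0.21 among males and −0.14 without both female HDM samples. Leaving out 1 sample gave 3 to 6 members and 2954 to 5338 genes. For HDM + Dex vs. HDM, all 153 member values kept theirs and no alternative called a member, apart from C1qb without HDM replicate 2 (0 to 1 members, 2 to 544 genes). All genes called, 171, became 83 without a filter, 505, 476 and 528 after median-of-ratios rescaling, rescaling without 7SL RNA and rRNA, and quantile normalization, 1 with only both groups and 316 with all samples in the fit, 611 with quality weights, 8 with the block, 293 with sex and 563 with the 7SL share as a covariate, 302 among males, 3 among females and 720 without the female HDM samples. For HDM + Dex vs. saline, C3 was lost, and with it the member count fell to 0, without a filter, with a pseudocount of 0.1, all samples in the fit, eBayes without trend, the block, the 7SL covariate and either sex alone, and quality weights gave 2. All genes called, 335, became 213, 169, 182, 180, 519, 190, 5471, 898, 1929, 34, 2196 and 9 in the order of settings just given for HDM + Dex vs. HDM, and 221 without trend. Near 0, values reversed: C1ra to −0.026 (weights), −0.20 (block), −0.051 (sex) and −0.29 (males), C4b to −0.0085 (block) and −0.19 (males), Cfb to −0.12 (block), Cfp to −0.095 (block) and −0.47 (males), C1qc to −0.0093 (males), and C2 to 0.41 (7SL) and 0.25 (females). Leaving out 1 sample gave 0 to 1 members and 66 to 772 genes, with C1ra from −0.078 to 0.20 and Cfp from −0.013 to 0.42. For aged vs. adult, members called were 1 after median-of-ratios rescaling, 1 after quantile normalization, 1 with the block and 4 with weights. All genes called, 116, became 190, 156, 168 and 784 in these settings, 67 with a filter at 5 CPM and 65 with all samples. C1ra and C2 reversed to −0.011 and −0.059 with weights and −0.20 and −0.16 with the 7SL covariate. Leaving out 1 sample gave 0 to 1 members and 74 to 154 genes, with C1ra from −0.046 to 0.35 and C2 from −0.0057 to 0.54. The difference between groups in the classical less alternative ratio went from −0.04 to 0.57 for HDM vs. saline and from 0.12 to 0.54 for HDM + Dex vs. saline with the C1q chains alone. The causes of these changes were not tested.

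A general pairing of samples by replicate number was not seen, though low correlations cannot exclude one. The deviations of same-numbered samples correlated above 0.1 in 1 of 5 pairs for HDM vs. saline and 2 of 7 for Dex against HDM. The highest values there were 0.30 and 0.41. For Dex against saline and for aged vs. adult, 0 of 5 pairs did. With the replicate block, limma called 4 of the 9 members after HDM, all higher, where 5644 genes (31.8%) were called, 641 of them higher. It called 0 of 9 in both Dex comparisons, with 8 and 898 genes in all, and 1 of 9 in aged vs. adult, with 168 genes. C2 and Cfp had the fewest reads behind them, at 2.42 and 1.70 CPM in adult saline replicate 1. The fits by sex and without both female HDM samples were chosen after seeing the data.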
